A study of Homo sapiens with 6 samples.

Results

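The proteasome genes examined here encode the subunits and assembly factors of the complex that degrades ubiquitin-tagged proteins, and they were read in K562 cells with and without extra CTCF. They were found by gene name on the array: a probe set was taken when its annotation gave 1 symbol only and that symbol began with PSMA, PSMB, PSMC, PSMD, PSME, PSMF or PSMG and a digit. The immunoproteasome subunits PSMB8, PSMB9 and PSMB10 were kept apart. The rule matched 94 of 54675 probe sets. Of these, 78 probe sets named 39 genes for subunits, regulators or assembly factors, and the other 16 carried 8 names that only resemble them, such as antisense RNAs. PSMA6 and PSME2 share their probe sets with another annotated gene, and PSMC5, PSMD7, PSMD13 and PSMB11 were not matched by the rule, so they were not analysed here.

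K562 is an established line from a human chronic myeloid leukemia. There were 2 arrays of KpCDNA cells, stable transfectants of the empty pCDNA vector, and 4 arrays of KCTCF-D11 cells, stably transfected to overexpress CTCF, a DNA-binding protein of insulators and chromatin loops. No further treatment was given. Each group is 1 named transfectant, so CTCF itself and any other trait of these transfectants cannot be told apart. The labels do not say whether replicates were separate cultures, so the p-values rest on a spread between samples that may be technical. In bulk RNA, fewer cells of a type and less RNA per cell cannot be told apart either.

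The proteasome joins a barrel-shaped core, made of alpha rings around catalytic beta rings, to a regulatory cap whose base unfolds substrates and whose lid removes their ubiquitin. Other caps open the core without ATP, and dedicated chaperones put rings and base together. Blood cancer cells depend on the complex, which is the target of proteasome inhibitors, and its genes are known to be induced together by the transcription factor NFE2L1 when proteolysis falls short.

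Both groups were divided between 2 sets of arrays, and the set entered the comparison. The labels do not name these sets, so what they are is not known. Clustering on 45 spike-in control probe sets, which match no human transcript, put empty vector array 1 with CTCF array 4 and the remaining 4 arrays together. Correlations across probe sets were 0.966 to 0.991 within a set and 0.877 to 0.907 between sets, and the log2 difference of the ACTB control probe sets for its 3' and 5' ends was 0.22 to 0.28 for the larger set against 0.81 and 0.91 for the other. CTCF (202521_at) read 457 and 634 with the empty vector and 1311, 1614, 1332 and 1332 with CTCF, a log2 change of 1.29 ± 0.16 (SE), or 2.44-fold (limma adjusted p = 0.0206, or 0.199 without the array set). Of 9 measured K562 markers, 9 lay above 100 on every array, with sums of 22816 and 23142 with the empty vector and 28819 to 34465 with CTCF. HBE1, HBZ, TFRC and LMO2 read higher with CTCF with no overlap of the groups, and GATA1 and LYL1 lower. Of these HBZ, at 1.58 ± 0.13, passed the threshold (limma adjusted p = 0.0116). The B cell markers summed to at most 192 and the myeloid markers to at most 874. The myeloid marker LYZ gave 0.67 ± 0.35, with no overlap (limma adjusted p = 0.340). Some markers of other tissues were also present: the T cell list summed to 1406 and 1462 with the empty vector and 692 to 754 with CTCF, almost all from CD3D, with the other 3 markers below 100. CD3D changed by -1.04 ± 0.12 and passed the threshold (limma adjusted p = 0.0188). The epithelial list summed to 3621 and 5037 with the empty vector and 3234 to 4867 with CTCF, with 3 of 4 markers above 100 on every array. Of these EPCAM gave 0.40 ± 0.15 and KRT8 -0.67 ± 0.16, both with no overlap of the groups and neither past the adjusted threshold. Of the fibroblast list, COL3A1 read 6627 and 6114 on the arrays of the smaller set and 146 to 165 on the others. COL1A1 read 138 to 227 over all arrays, and DCN and LUM were below 100 on every array. The K562 marker EPOR was split like COL3A1, at 1748 and 1346 on the smaller set and 243 to 289 on the larger. The part of these differences in the results below was not tested.

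Most proteasome genes read slightly higher in the CTCF cells. With the brightest probe set for each gene, 31 of 39 genes had a positive log2 change, with a median of 0.26 and a range from -0.56 to 0.74. Over all 19775 genes 46.9% were positive and the median was -0.02. For 2511 genes as bright as most members, with a mean above 10 on the log2 scale, 46.2% were positive and the median was -0.03, while the 34 members in that range had a median of 0.27. Changes are coefficients from limma on log2(intensity + 16), CTCF over empty vector, with the array set as a term, and p-values carry a Benjamini-Hochberg adjustment over all probe sets or all genes. In these terms 1 of 39 genes rose, the lid gene PSMD12, and 0 fell, where 4.41% of all genes were called, 1.25% higher and 3.16% lower, and 5.22% of the bright genes. Of the 78 probe sets, 1 rose, a PSMB2 probe set, and 0 fell, where 1.86% of all probe sets were called, 0.538% higher. In this fit the shares called were near the background, but they differed under other settings, for causes that were not tested. With a pseudocount of 64, 11 of 39 genes passed (28.2%), 9 higher and 2 lower, where 8.52% of all genes and 16% of the bright genes did. With a variance trend and robust variances, 15 of 39 passed (38.5%), 13 higher and 2 lower, where 8.85% of all and 19.1% of the bright genes did. Without the array set in the fit 0 members passed, as 12 of all genes did, and at an unadjusted p under 0.05 it gave 10 members higher and 1 lower.

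**Figure D1:**
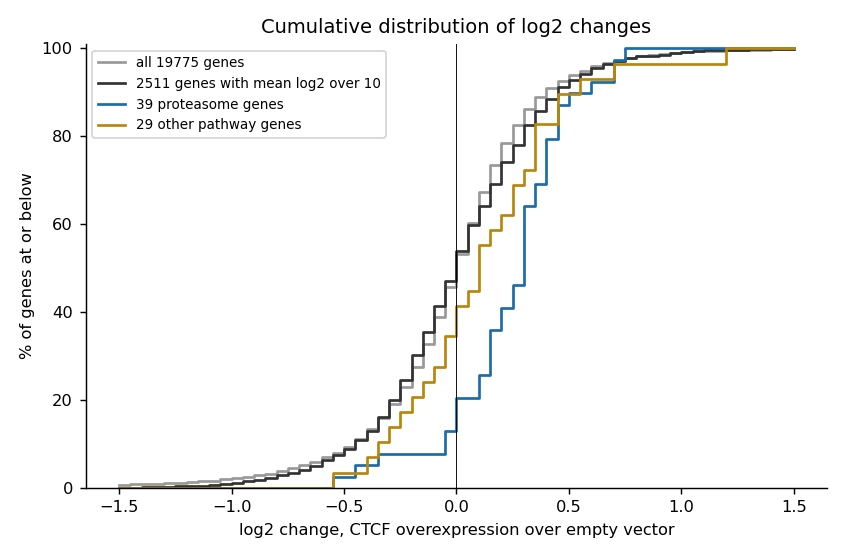
Cumulative share of genes (y axis, %) at or below each log2 change, CTCF overexpression over empty vector (x axis), for all genes, bright genes, the 39 proteasome genes and 29 other genes of the pathway. The proteasome curve lies to the right of the others over most of its range, with a median of 0.26 against -0.02 for all genes.

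Below the adjusted threshold the members leaned one way. At an unadjusted limma p under 0.05 there were 16 genes with a higher and 3 with a lower value, where the background was 8.66% and 12.7% of all genes, or 15.1% and 14.7% of the bright genes. All 4 CTCF arrays lay above both empty vector arrays for 21 genes and below them for 3. All genes separated in this way in 8% and 9.63% of cases, and bright genes in 22.3% and 21.8%. Set against the empty vector array of its own set, each CTCF array showed the shift, with medians over the 39 genes of 0.24, 0.32, 0.28 and 0.20 on arrays 1 to 4 and positive differences for 31, 33, 32 and 31 genes. Arrays 1 to 3 share 1 empty vector array, so these values are not separate results.

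**Figure D2:**
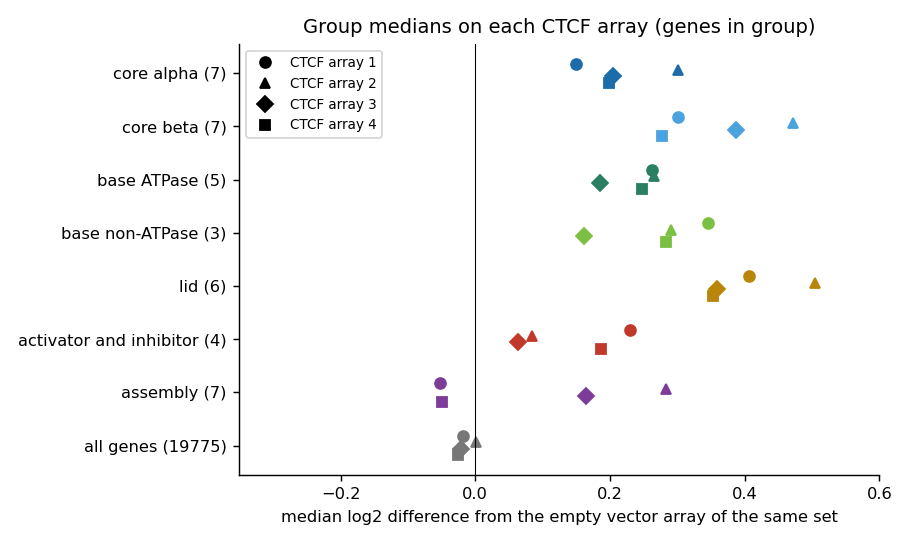
Median log2 difference of each gene group (rows, number of genes in brackets) on each of the 4 CTCF arrays, against the empty vector array of the same set. Every proteasome group except assembly had positive medians on all 4 arrays. They ran from 0.28 to 0.50 for the 7 core beta and 6 lid genes and from 0.06 to 0.35 for the other groups. The medians of the 7 assembly factors ran from -0.05 to 0.28.

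The alpha subunits form the outer rings of the core and its gate. Of 7 genes, 5 had positive changes and 0 passed, with a median of 0.22. PSMA7, the subunit that PSMA8 replaces in the testis, read 2958 and 3394 with the empty vector and 4032, 4749, 4357 and 3867 with CTCF. Its groups did not overlap, its log2 change was 0.37 ± 0.12, and limma's adjusted p was 0.159. Its second probe set gave 0.37 ± 0.16. PSMA2 came next at 0.33 ± 0.12 (adjusted p = 0.19). PSMA1, another ring subunit, did not share the shift: it read 5115 and 5282 with the empty vector and 4954 to 5347 with CTCF. Its log2 change of -0.03 ± 0.11 has a 95% interval from -0.30 to 0.24, and its sign turned under median centring (0.018). PSMA8 itself was near the floor of the array, at 4.18 ± 0.23 (SD, n = 2) and 2.60 ± 1.67 (SD, n = 4).

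The beta subunits build the inner rings and hold the active sites. All 7 measured genes had positive changes, from 0.19 to 0.50 with a median of 0.29, and all 7 separated the groups, although 0 passed over all genes. Such upward separation was seen in 8% of all genes and 22.3% of bright genes. PSMB2 (200039_s_at) read 3182 and 3342 with the empty vector and 4608, 5021, 4786 and 4403 with CTCF, a change of 0.50 ± 0.11, or 1.41-fold (limma adjusted p = 0.0712). The active-site subunits were alike in direction. PSMB6, the caspase-like subunit, changed by 0.45 ± 0.13, PSMB7, the trypsin-like subunit, by 0.29 ± 0.11, and PSMB5, the chymotrypsin-like subunit and main target of bortezomib, by 0.26 ± 0.15. For PSMB7 the arrays were tight: 2938 and 2939 with the empty vector against 3623, 3672, 3598 and 3565 with CTCF. PSMB3 changed by 0.42 ± 0.13 and PSMB4 by 0.29 ± 0.12. PSMB1 changed by 0.19 ± 0.11, from 7018 ± 64.1 (SD, n = 2) to 8051 ± 275 (SD, n = 4).

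A further PSMB2 probe set (238425_at) gave the only call among the 78. It read 35.4 and 106 with the empty vector and 290, 294, 279 and 199 with CTCF, and rose by 1.62 ± 0.19 on the log2 scale, or 3.07-fold (limma adjusted p = 0.0257 over probe sets). Within the smaller and larger array sets the difference was 2.06 and 1.32. The change exceeds that of the brighter PSMB2 probe set, and a further probe set (201404_x_at) gave -0.16 ± 0.28, with 825 to 1615 on the arrays of the larger set and 2674 and 2693 on the others. The call of 238425_at ended without the array set (limma adjusted p = 0.352) and, at 0.105 to 0.287, without any 1 array other than CTCF array 1. In the authors' deposited table this was the only proteasome probe set listed, of 768 in all or 1.40% of the array, with a signed fold change of 3.77 and bounds of 2.02 and 21.6. The ratio of the unlogged group means, with no pseudocount, was 3.76. A dim PSMB4 probe set (228204_at) came close to a call, reading 103 and 122 against 193, 227, 214 and 184, with a change of 0.73 ± 0.12 (limma adjusted p = 0.0533 over probe sets).

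**Figure D3:**
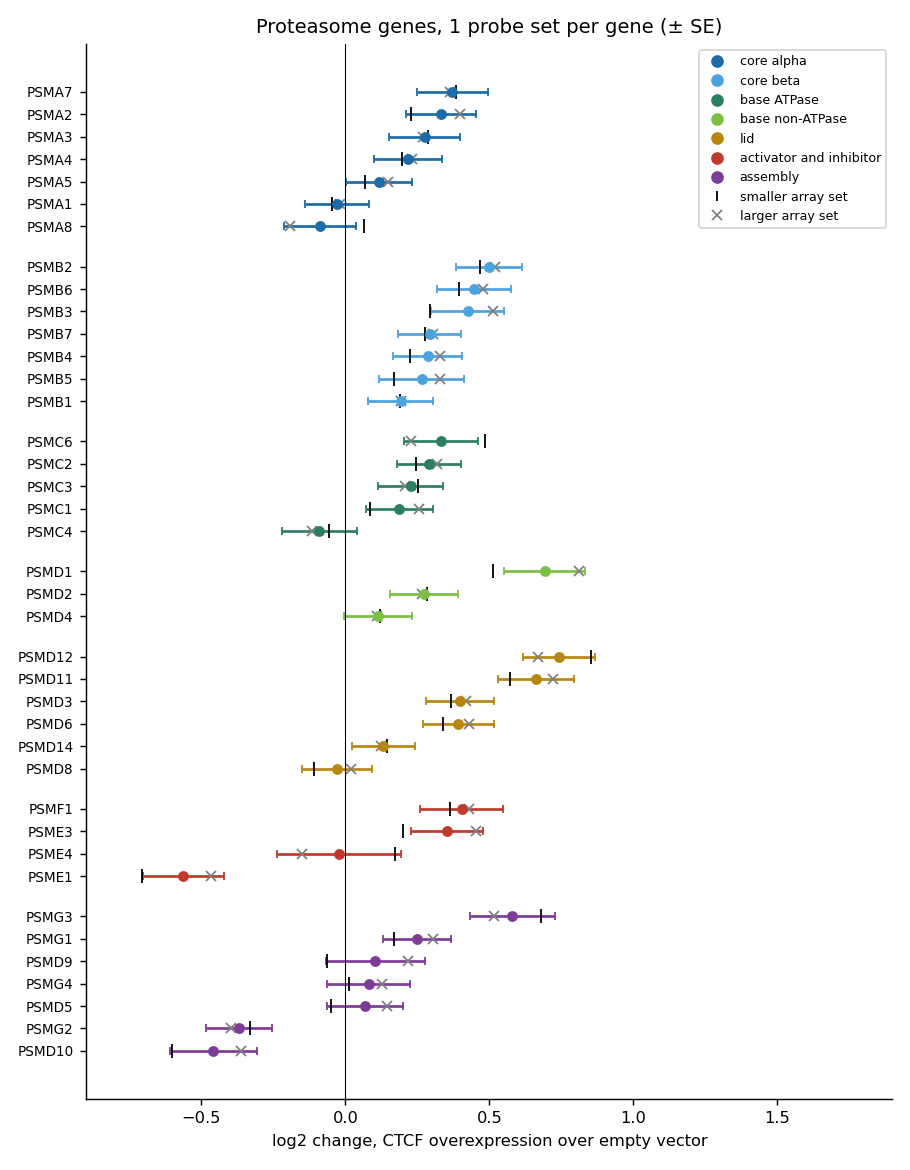
Log2 change (x axis) of each of the 39 proteasome genes, CTCF overexpression over empty vector, as points with their SE in the fit with the array set; ticks and crosses give the differences within the smaller and larger array set. PSMD12, PSMD1 and PSMD11 lie farthest right at 0.66 to 0.74, and PSME1, PSMD10 and PSMG2 farthest left at -0.37 to -0.56.

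In the base of the cap, the ATPases thread substrates into the core. Of 5 measured, 4 were positive and 0 passed, with a median of 0.23. PSMC6 and PSMC2 had changes of 0.33 ± 0.13 and 0.29 ± 0.11 (limma adjusted p = 0.211 and 0.212). PSMC2 read 4531 and 4557 with the empty vector and 5470, 5828, 5785 and 5380 with CTCF, so the groups did not overlap, while its dimmer probe sets gave -0.08 and 0.03. PSMC4 gave -0.09 ± 0.13, from 3654 and 2682 to 2722, 2483, 2246 and 3515, where both high values, 3654 and 3515, belong to the smaller array set. Among the other base subunits, PSMD1, a large scaffold on which the cap is built, stood out. It read 1255 and 1351 with the empty vector and 2184, 2613, 2376 and 1795 with CTCF, a change of 0.69 ± 0.14, or 1.62-fold (limma adjusted p = 0.0564). Its second probe set gave 0.59 ± 0.12. The related scaffold PSMD2 changed by 0.27 ± 0.12 and PSMD4, a ubiquitin receptor, by 0.11 ± 0.12.

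The lid held the gene that passed. Of its 6 genes matched by the naming rule 5 were positive, with the highest median of the 7 groups, 0.40. Core beta led instead when all probe sets of a gene were averaged (0.42 against 0.24). The lid subunit SEM1, outside that rule by its name, gave -0.07 ± 0.12 and is not counted here. PSMD12, a scaffold subunit of the lid, read 1426 and 1607 with the empty vector and 2406, 2757, 2535 and 2587 with CTCF. Every CTCF array lay far above both others, and it rose by 0.74 ± 0.13, or 1.67-fold (limma adjusted p = 0.0388 over genes, 0.0535 over probe sets). Within the smaller and larger array sets the difference was 0.85 and 0.67, and the second probe set gave 0.57 ± 0.20. The call ended without the array set in the fit (limma adjusted p = 0.212). It also ended, at 0.11 to 0.335, without any 1 of empty vector arrays 1 and 2 or CTCF arrays 2, 3 and 4, and was 0.0477 without CTCF array 1. PSMD11, known in human embryonic stem cells to promote assembly of the capped complex, read 1566 and 1500 against 2228, 2672, 2572 and 2336. Its change of 0.66 ± 0.13 had an adjusted p of 0.0553 in limma. Its dimmer second probe set (208776_at) gave 0.02 ± 0.18, with overlapping groups. PSMD3 and PSMD6 followed at 0.40 ± 0.12 and 0.39 ± 0.12. The groups overlapped for PSMD3, where CTCF array 4 read 1313 and empty vector array 2 read 1559, and did not overlap for PSMD6. The deubiquitinase PSMD14, the lid's enzyme, changed by 0.13 ± 0.11, with an interval from -0.14 to 0.40. PSMD8 gave -0.03 ± 0.12, and its sign turned under quantile normalization (0.0081) and median centring (0.016).

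**Figure D4:**
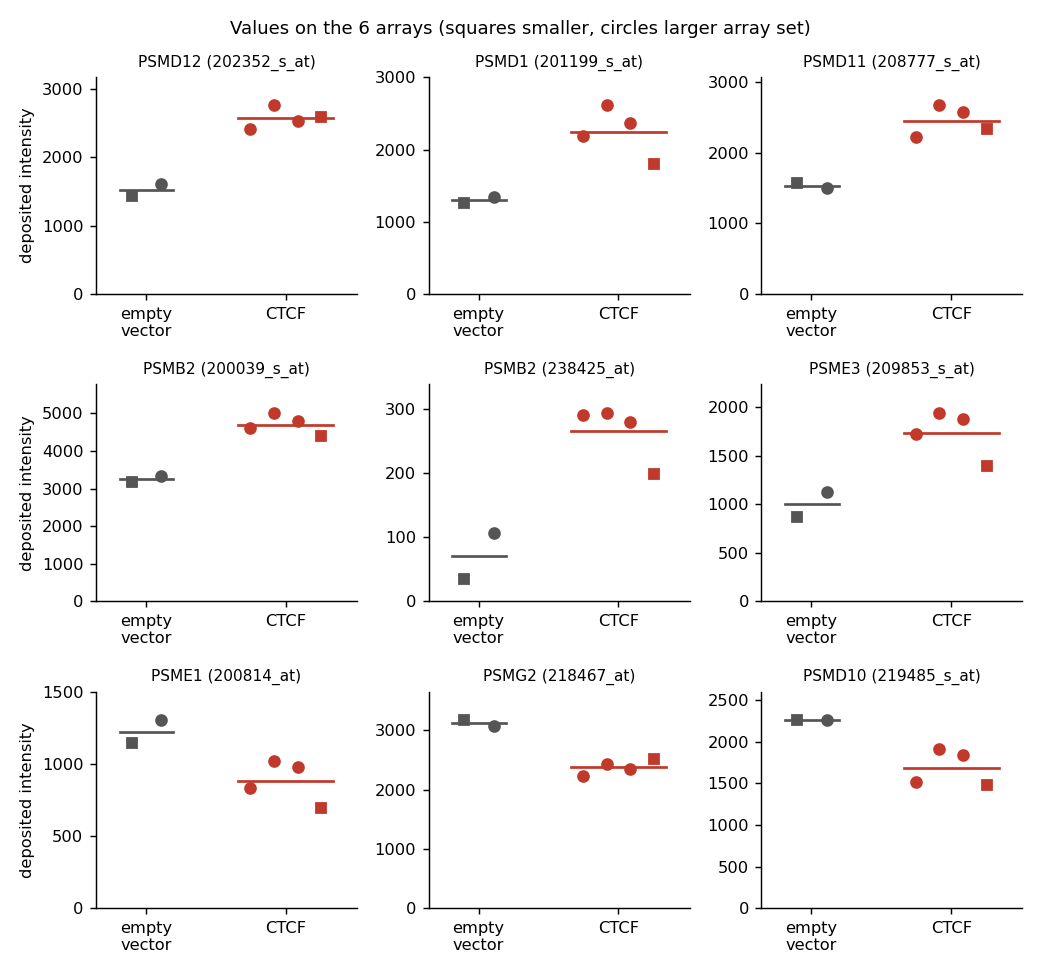
Deposited intensity (y axis, linear, from 0) on each array for 9 probe sets of proteasome genes, grey for empty vector and red for CTCF, squares for the smaller and circles for the larger array set, with lines at the group means. For each of the 9, every array of one group lies on 1 side of the other group, upward for PSMD12, PSMD1, PSMD11, PSMB2 and PSME3 and downward for PSME1, PSMG2 and PSMD10. The 9 were picked by name, and PSME3 is shown by its probe set of smallest unadjusted limma p, so their separation is not a result. Of bright genes 22.3% separated upward and 21.8% downward.

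The start regions of the genes with the largest changes are shown for context. They come from RefSeq (GRCh38.p14), 250 bases before to 50 after the start, 5' to 3' on the gene's strand. PSMD12, PSMD1, PSMD11 and PSMB2 have the largest changes of the members with an entry. PSMG3, which lies between PSMD11 and PSMB2 by change, had no entry. Capitals mark matches, on either strand, to TGACNNNGC, the core of the antioxidant response element read by NFE2L1 and its relatives, to CCAAT, the NF-Y box, to GGAAGT, an ETS core, or to CCANNAGG, letters within the CTCF motif.
PSMD12, chr17:67366528-67366827, minus strand: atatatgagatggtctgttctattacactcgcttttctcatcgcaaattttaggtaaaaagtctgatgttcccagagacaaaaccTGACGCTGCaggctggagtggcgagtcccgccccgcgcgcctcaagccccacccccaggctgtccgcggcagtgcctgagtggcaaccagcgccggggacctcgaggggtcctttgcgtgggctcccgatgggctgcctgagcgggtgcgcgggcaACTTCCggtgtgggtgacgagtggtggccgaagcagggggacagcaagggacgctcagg
PSMD1, chr2:231056617-231056916, plus strand: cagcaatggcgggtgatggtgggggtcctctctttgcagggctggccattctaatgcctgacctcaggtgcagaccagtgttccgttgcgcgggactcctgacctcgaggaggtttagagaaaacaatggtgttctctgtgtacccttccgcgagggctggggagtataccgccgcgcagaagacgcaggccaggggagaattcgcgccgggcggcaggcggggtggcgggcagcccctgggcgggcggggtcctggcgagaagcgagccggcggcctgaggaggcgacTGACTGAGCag
PSMD11, chr17:32444260-32444559, plus strand: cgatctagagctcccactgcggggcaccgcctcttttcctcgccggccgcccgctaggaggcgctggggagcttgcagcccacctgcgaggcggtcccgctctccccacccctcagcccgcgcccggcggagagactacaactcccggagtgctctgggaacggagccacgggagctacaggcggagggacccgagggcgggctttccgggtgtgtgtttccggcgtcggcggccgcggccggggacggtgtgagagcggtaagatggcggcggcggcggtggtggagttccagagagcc
PSMB2, chr1:35641477-35641776, minus strand: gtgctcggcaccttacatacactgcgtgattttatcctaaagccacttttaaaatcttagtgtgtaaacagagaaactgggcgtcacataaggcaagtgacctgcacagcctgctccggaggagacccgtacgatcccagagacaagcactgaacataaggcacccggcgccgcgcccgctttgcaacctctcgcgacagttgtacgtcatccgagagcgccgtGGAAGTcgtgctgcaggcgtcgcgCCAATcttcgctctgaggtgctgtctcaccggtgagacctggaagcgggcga
In PSMD12 the first match is to TGACNNNGC, at -165 from the start, and the second is GGAAGT on the minus strand at -9. PSMD1 has TGACNNNGC at 40 bases into the transcript, PSMB2 has GGAAGT at -26 and CCAAT at -2, and these letters were not in the PSMD11 window.

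Of the 39 genes 33 had at least 1 start region, 39 regions in all. TGACNNNGC was in 30.8% of these regions and in 13.3% of all 35116, or 13.8% of those of coding genes. GGAAGT was in 53.8% against 22.8% of all, CCAAT in 41.0% against 34.6%, and CCANNAGG in 30.8% against 21.4%. The median log2 change was 0.16 for the 12 genes with TGACNNNGC and 0.27 for the 21 without, and 0.24 and 0.25 for the 18 with and 15 without GGAAGT. It was 0.27 for the 16 genes with CCAAT and 0.10 for the 17 without, and 0.13 for the 11 with CCANNAGG and 0.27 for the 22 without. These medians carry no test, and a match is a description of letters and not a binding site.

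The genes of the alternative caps had changes of either sign, and 0 passed. PSME1, which pairs with PSME2 in the interferon-inducible cap of antigen processing, read 1145 and 1306 with the empty vector and 836, 1019, 979 and 695 with CTCF. All 4 CTCF values lay below both others, with a log2 change of -0.56 ± 0.14 (limma adjusted p = 0.0894). PSME3, the nuclear relative that forms a cap by itself, lay on the other side. Its probe set 209853_s_at read 870 and 1124 against 1721, 1942, 1872 and 1393, a change of 0.69 ± 0.12, and 2 more probe sets gave 0.70 and 0.77. The brightest PSME3 probe set (209852_x_at) read 787 to 1121 on the arrays of the larger set and 4054 and 4661 on the others, and gave 0.35 ± 0.12 with the array set in the fit and -0.20 without it. PSME4, the large cap of chromatin and spermatogenesis, gave -0.02 ± 0.21, and its other probe sets gave -0.39 ± 0.15 and 0.16 ± 0.18. PSMF1, an inhibitor and adaptor of the core, gave 0.40 ± 0.14 (limma adjusted p = 0.181), but its next brightest probe set (201053_s_at) gave -0.18 ± 0.22.

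Of the assembly factors 0 passed. PSMG1 and PSMG2 act as a dimer that starts the alpha ring, and their changes had opposite signs. PSMG1 read 3840 and 3379 with the empty vector and 3939, 4284, 4320 and 4316 with CTCF, a change of 0.25 ± 0.12. PSMG2 read 3177 and 3082 against 2229, 2440, 2350 and 2523, a change of -0.37 ± 0.11 (limma adjusted p = 0.135). In both genes the groups did not overlap, in opposite directions. The partner dimer of PSMG3 and PSMG4 gave 0.58 ± 0.15 and 0.08 ± 0.14, while the 4 dimmer PSMG4 probe sets were negative, from -0.12 to -0.53. PSMG3 read 478 and 792 against 986, 1263, 1187 and 774, so the CTCF array of the smaller set lay just under the empty vector array of the larger (limma adjusted p = 0.0918). Of the chaperones of the base, PSMD10, also called gankyrin, read 2263 and 2258 against 1516, 1918, 1846 and 1486, a change of -0.46 ± 0.15 (limma adjusted p = 0.154), and its second probe set gave -0.34 ± 0.13. PSMD9 gave 0.10 ± 0.17 and PSMD5 0.07 ± 0.13. Of the 7 assembly genes 5 were positive, with a median of 0.08.

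By structure, the core and the cap had like medians. The 14 core genes had a median of 0.28 and the 14 genes of base and lid 0.28, with 12 positive in each. The activators and inhibitor had 0.17 and the assembly factors 0.08, and neither sign was stable. The first was -0.089 without the array set and -0.13 with the replicate block, and the second -0.21 with the mean of all probe sets and -0.05 in the smaller array set. The groups have 3 to 7 genes and overlap widely, and no test of the differences between them was made.

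Probe sets of a gene did not always read alike. Of the 78, 53 had positive changes, 23 a positive and 6 a negative change at an unadjusted limma p under 0.05, where the background was 7.43% and 10.2% of all probe sets, and 0 genes had such probe sets in opposite directions. The groups did not overlap for 32 probe sets higher and 5 lower, where the background was 6.06% and 7.18%. For bright genes, by their brightest probe set, the shares were 22.3% and 21.8% without overlap. At the unadjusted limma p they were 15.1% and 14.7%. The difference between array sets exceeded 1 on the log2 scale for 7 of 78 probe sets, among them 209852_x_at of PSME3, 201404_x_at of PSMB2 and 210459_at of PSMD4, which read 3.64 to 15.0 on the larger set's arrays and 209 and 231 on the others. Over all probe sets this held for 11405 of 54613. The 39 probe sets that stand for the genes had a median absolute difference of 0.14 between array sets and of 0.29 between groups, while over all probe sets these were 0.42 and 0.18. The values over all probe sets were not matched to the members for brightness.

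**Figure D5:**
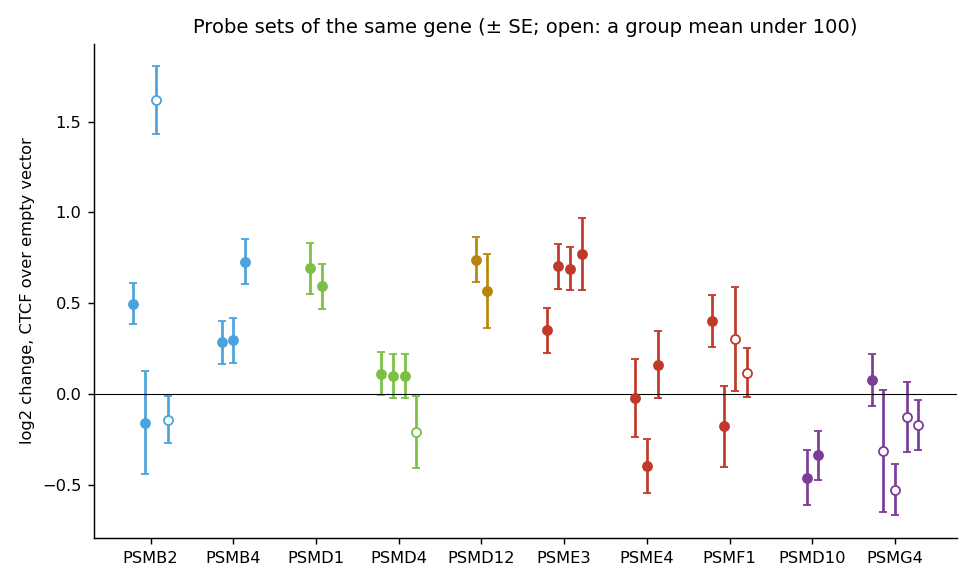
Log2 change with SE (y axis) of every probe set of 10 proteasome genes, ordered from bright to dim within a gene; open points have a group mean under 100. The 3 bright PSMD4 probe sets lie at 0.10 to 0.11, 3 of 4 PSME3 probe sets at 0.69 to 0.77, and the dim PSMB2 probe set at 1.62, above the others of that gene.

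The 8 further names matched by the rule are not proteasome parts, and 0 passed. They are PSMC3IP, a factor of meiotic recombination, PSME3IP1, a partner of PSME3, and 6 noncoding RNAs next to proteasome genes. Their median was -0.04. PSMA3-AS1 had the largest change, -0.94 ± 0.28, from 140 and 416 with the empty vector to 223, 161, 125 and 97.0 with CTCF. The groups overlapped (limma adjusted p = 0.125), while PSMA3 itself gave 0.28 ± 0.12.

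The members were spread over 16 chromosomes, and 6 lie on chromosome 17: PSMB3, PSMB6, PSMD3, PSMD11, PSMD12 and PSME3. These 6 had a median of 0.44 and were all positive, while the 33 on other chromosomes had 0.22. The 121 bright genes of chromosome 17 had a median of 0.04 with 68 positive. This grouping was chosen after the values were seen.

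Other genes of the pathway, 29 measured of 34 listed, had a median of 0.07, with 17 positive, and 0 passed. At an unadjusted limma p under 0.05, 6 had a higher and 4 a lower value, against 8.66% and 12.7% of all genes. ZFAND2A, a stress-induced protein of the cap, had the largest change, reading 162 and 248 with the empty vector and 384, 718, 737 and 384 with CTCF. Its change was 1.18 ± 0.29 (limma adjusted p = 0.0844), and the authors' deposited table lists it with a fold of 2.67. NFE2L1, the factor that induces proteasome genes, read 1271 and 1298 against 1070, 809, 727 and 860, a change of -0.58 ± 0.18 (limma adjusted p = 0.144), with -0.47 and -0.64 in its other probe sets. NFE2L2, a relative that responds to oxidative stress, gave 0.44 ± 0.15, from 1268 and 1909 to 2683, 2334, 2181 and 1949 (limma adjusted p = 0.158). Its dimmer probe sets gave 0.23 ± 0.18 and 0.04 ± 0.16, with overlapping groups.

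Subunits and partners under other names were mixed as well. ADRM1, a ubiquitin receptor of the base, changed by 0.55 ± 0.19, and the lid subunit SEM1 by -0.07 ± 0.12. POMP, which matures the core, had 0.04 ± 0.12. Of the genes bound to the cap, the deubiquitinase USP14 gave 0.35 ± 0.12, while its other probe sets gave -0.12 and -0.30. In substrate delivery UFD1 changed by 0.41 ± 0.12 and FAF2 by 0.27 ± 0.13. The shuttle UBQLN1 gave -0.44 ± 0.13, with 0.23 and -0.02 in its other probe sets. The ubiquitin-activating enzyme UBA6 gave -0.28 ± 0.14, with -0.29, -0.21, -0.19, -0.05, 0.02 and 0.55 in its other probe sets. The probe set at 0.55 ± 0.18 was dim, at most 44.9 on any array. The immunoproteasome subunits PSMB8 and PSMB9 were dim, at most 2.52 and 41.4 on any array, and PSMB10 read 111 and 237 against 234, 472, 446 and 196 (0.66 ± 0.30, limma adjusted p = 0.286).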

How the data were processed

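Biotin-labelled RNA of K562 transfectants was read on Affymetrix U133 Plus 2.0 arrays, per the labels' protocols. The deposited intensity values are linear, 1 for each probe set on each array. How the authors summarised and normalized them is not given in the sources used here. A second deposited table, of probe sets the authors selected, holds group mean intensities, signed fold changes with bounds and differences of means, taken here as scores of the authors, with a selection on a lower bound of 1.5 and a difference of 90 per the file headers.

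Values were analysed as log2(intensity + 16) in limma 3.58.1 (R 4.3.3; lmFit and eBayes, 2-sided) over 54613 probe sets, without 62 controls, with the array set and the group as terms. A gene is its probe set of highest mean, and p-values were adjusted over 54613 probe sets or 19775 genes, at a threshold of 0.05. Array sets came from average-linkage clustering on spike-ins. Group medians carry no test. The fit was tested on simulated data. Gene names came from the platform annotation at GEO, 41091 with 1 gene and 1801 with several, of which 41037 of the former matched RefSeq (GRCh38.p14) by Entrez ID. Array values or the log2 change alone are given for members with the largest or smallest change or the highest level of their group. The same holds for every member with an unadjusted limma p under 0.05 and for called probe sets. Of the other pathway genes it holds for the 8 largest changes without overlap, with NFE2L1, POMP, ADRM1 and SEM1. The members and lists were chosen with earlier results of these data known. Alternatives were no array set, the replicate number as a block, median centring, quantile normalization, dropping dim probe sets, pseudocounts of 1 and 64, a variance trend with robust variances, an adjusted p of 0.01, averaging a gene's probe sets, each array left out, and each array set alone. The small number of arrays limits the precision.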

Additional observations from a re-analysis of the deposited data

Results flagged for a closer look

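The rule used here looks for a gap between 1 CTCF array and the nearest other that takes up most of the range of the 4. It was met by 4 of 41 named items. Chance alone singles out about 1 in 20 groups by this rule only where all 4 arrays are alike. Here CTCF array 4 is of another array set, and the array set was not taken out of the values. Many of the items were also named for their changes. The count of 4 of 41 therefore cannot be set against 1 in 20, and no conclusion is drawn from it. For PSME3 (209852_x_at) CTCF array 4, at 4661, stood apart with a gap of 0.941 of the range. For PSMB2 (238425_at) CTCF array 4, at 199, had a gap of 0.864. Array 4 is the CTCF array of the smaller array set. On empty vector array 1, of the same set, the PSME3 probe set read 4054, against 787 to 1121 on the larger set. The PSMB2 probe set read 35.4 on empty vector array 1 and 106 on empty vector array 2. The part of the array set in these gaps was not tested. For PSMG1 CTCF array 1, at 3939, had a gap of 0.91, and for CTCF itself CTCF array 2, at 1614, a gap of 0.923.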

How the results depend on the processing

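The positive median of the 39 genes was the steadiest result: over the alternatives run it lay between 0.20 and 0.31, and 29 to 34 members were positive. With arrays left out 1 at a time it ran from 0.20 (without empty vector array 2) to 0.27, and it was 0.20 in the smaller array set alone, an alternative added after the data were seen. Calls depended far more on the setting, for causes that were not tested. Against 1 probe set higher and 0 lower, 1 gene higher and 0 lower, the counts higher were 0 and 0 without the array set, with the replicate block, with a pseudocount of 1, at an adjusted p of 0.01 and in the larger array set alone. They were 4 probe sets under quantile normalization and under median centring, and 8 probe sets and 4 genes when dim probe sets were left out, where fewer are tested. Leaving dim ones out called 11.7% of all genes and 10.5% of members. With a pseudocount of 64 there were 10 probe sets and 9 genes higher and 1 and 2 lower (28.2% of members, 8.52% of all genes); with a variance trend and robust variances, 10 probe sets and 13 genes higher and 2 genes lower, PSME1 and PSMG2 (38.5% of members, 8.85% of all). With the mean of all probe sets 2 genes passed, PSMD1 and PSME3. Leaving out 1 array gave 0 to 1 probe sets and genes; all but CTCF array 1 ended both calls. Over all genes, 12 calls without the array set and 918 under quantile normalization compare with 873.

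Group medians moved by more than the spread between arrays as follows. Without the array set, base ATPases had 0.30, other base subunits 0.37, the lid 0.50, and activators and inhibitor -0.089, with PSME3 at -0.20. With the replicate block they were 0.31, 0.52, 0.59 and -0.13, and core beta 0.37. Quantile normalization gave 0.34 for other base subunits and 0.20 for activators and inhibitor, and median centring gave 0.27 for ATPases and 0.21 for activators and inhibitor. The latter ran from 0.12 to 0.19 with 1 array left out. The mean of all probe sets gave 0.42 for core beta, 0.24 for the lid, 0.039 for activators and inhibitor and -0.21 for assembly. Signs turned for PSME3 without the array set (-0.20) and with the replicate block (-0.74). They turned for PSMD8 in the same fits (0.0036 and 0.032), under quantile normalization (0.0081) and median centring (0.016), and with CTCF array 4 or empty vector array 1 left out, which both equal the larger set alone (0.021; range with 1 array left out -0.11 to 0.021). PSMA1 turned under median centring (0.018) and the replicate block (0.0028), POMP under the replicate block (-0.047), and PSMA8 and SEM1 without empty vector array 2, with ranges of -0.19 to 0.065 and -0.16 to 0.052 over the arrays left out. The replicate numbers 1 and 2 share only a name: their deviations correlated at 0.027, and with the array set as well the block left no residual degree of freedom, so that fit was not run. Higher calls were 28.4% of those made as deposited and 41.6% after quantile normalization, which moved the median of all genes from -0.020 to 0.015.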
